A study of Rattus norvegicus with 5 samples.

Results

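SMAD proteins are the transcription factors that carry transforming growth factor beta (TGF-beta) and bone morphogenetic protein (BMP) signals from receptor to chromatin, and SKI family proteins are nuclear repressors that bind them. The set examined comprises 10 rat genes: Smad1, Smad2, Smad3, Smad4, Smad5, Smad6, Smad7, Smad9, Ski and Skil. Members were taken as the array probes whose platform annotation carries one of these symbols, which found 8 probes for 8 genes among 22523 probes in all. No probe carries the symbol Ski or Skil in the annotation, and neither gene was analysed here. Of the 8 genes, 6 were detected (detection p-value under 0.01, against the array's negative control beads) on at least 1 array, 5 of them on all 5 arrays.

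The arrays hold total RNA of primary hepatic stellate cells from male Wistar rats of 10 weeks, which store vitamin A in the liver and become matrix-producing myofibroblasts on injury or in culture. A single array is labelled as freshly isolated, untreated cells, 2 arrays hold day 3 cells given vehicle, and 2 hold day 3 cells given calcitriol (1,25-dihydroxyvitamin D3, the ligand of the vitamin D receptor) at 100 nM, for 24 h by the design text. The stated aim was to learn what vitamin D ligands do to stellate cells once activated. Nothing in the labels says that replicates came from separate animals or cultures, so the p-values reflect array-to-array spread alone, possibly technical.

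In the canonical pathway, TGF-beta and activin receptors phosphorylate Smad2 and Smad3, while BMP receptors phosphorylate Smad1, Smad5 and Smad9. These receptor-regulated SMADs join the common partner Smad4, enter the nucleus and bind short GTCT or GC-rich motifs in target genes. Smad6 and Smad7 are inhibitory SMADs, themselves induced by the pathway, and Ski and Skil (SnoN) hold SMAD target genes in check. In stellate cells the Smad3 branch is known for driving collagen synthesis, and vitamin D receptor and Smad3 are known to meet at the same fibrotic genes. SMAD activity is set largely by phosphorylation and location, which an RNA array does not measure.

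Markers were compared with the labels first. Of 15 stellate and mesenchymal markers with a named probe, 13 were detected on at least 1 array, and Gfap and Ngfr on none. Macrophage markers were detected too, 14 of 15 on all arrays with summed normalized intensities between 95366 and 105654, so RNA of such cells cannot be told apart from that of stellate cells here, nor can fewer cells of a type from less RNA per cell. Among leukocyte genes Ptprc fell (log2 change -1.23 ± 0.18, adjusted p = 0.038) and Ptprcap rose (1.77 ± 0.13, adjusted p = 0.00725) with calcitriol. Hepatocyte markers were mostly at background (14 of 17 undetected, Alb among them). Cyp24a1, the calcitriol-degrading enzyme and a direct vitamin D receptor target, had deposited signals of 510 and 591 intensity units with calcitriol and 105 and 84.4 with vehicle, but 382 on the array labelled freshly isolated, which carries the label of no treatment. Directions drawn from that array rest on its label. With that array left out of the fit, but kept in the normalization and the probe filter, the calcitriol and vehicle values below are the same. This follows from the model, since a group of 1 array adds nothing to the estimate of spread. Normalization without that array was not run. Vehicle array 2 had the lowest mean signal (608) and the array labelled freshly isolated the highest (855), with medians of 110.3 to 121.3.

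Base composition differed between the annotated promoter windows of Smad7 and Smad4. Windows (from 250 bases before to 50 after the start, RefSeq, build GRCr8) were found for 9 of the 10 genes, and for Smad6 none was used. The inhibitory Smad7, whose level varied most across the arrays, and the common partner Smad4, whose vehicle mean lay closest to the array labelled freshly isolated, are shown, with capitals for GGCGCC, a GC-rich SMAD-binding sequence, and for CAGAC or its complement GTCTG, the core of the SMAD box. The Smad7 window is chr18:71263258-71263557 on the plus strand and the Smad4 window chr18:69549635-69549934 on the minus strand.
Smad7: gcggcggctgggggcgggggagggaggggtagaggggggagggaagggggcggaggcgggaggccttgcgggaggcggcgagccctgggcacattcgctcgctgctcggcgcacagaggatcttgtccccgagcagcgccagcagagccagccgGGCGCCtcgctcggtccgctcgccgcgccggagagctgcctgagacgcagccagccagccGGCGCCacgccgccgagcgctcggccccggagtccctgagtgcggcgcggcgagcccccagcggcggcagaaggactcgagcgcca
Smad4: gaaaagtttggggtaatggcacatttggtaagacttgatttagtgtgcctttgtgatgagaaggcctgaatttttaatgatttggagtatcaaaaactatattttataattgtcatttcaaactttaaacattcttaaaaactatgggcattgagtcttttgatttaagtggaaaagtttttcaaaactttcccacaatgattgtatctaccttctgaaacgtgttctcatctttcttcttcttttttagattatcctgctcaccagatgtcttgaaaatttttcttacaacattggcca
G and C make up 77.7% of the Smad7 window and 31.7% of the Smad4 window. The Smad7 window holds GGCGCC at 2 places, beginning 96 and 36 bases before the start, and the Smad4 window at 0. Among the 9 genes, GGCGCC lies in a window of 5 (Smad2, Smad3, Smad7, Smad9 and Skil), against 11.0% of all 33469 promoter windows of the same length, searched on both strands. CAGAC lies in 2 (Smad9 and Skil), against 50.1% of all windows, and the palindrome GTCTAGAC, which contains neither of the others, in 0, against 0.197%. These matches describe letters and the base composition that goes with them, not binding. Windows follow the annotated starts, and whether transcription begins there in these cells was not tested. In the same assembly, Smad3 and Smad6 are next to each other on chromosome 8, with 0 protein-coding genes between their starts, and Smad4, Smad7 and Smad2 share chromosome 18.

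With calcitriol against vehicle, the SMAD transcripts differed little. The 6 detected genes lay between 0.794-fold and 1.19-fold of vehicle, and 0 of 6 passed an adjusted p of 0.05 in limma, where 1.83% of all 9737 detected probes were called (114 higher, 64 lower). At an unadjusted p under 0.05 there was 1 of 6 (Smad6), against 15.8% of all probes. The 95% intervals of the 6 changes, each for a single gene, reached from 0.605-fold to 1.60-fold at the extremes, so none included a halving or a doubling. For 4 of the 6, both calcitriol arrays lay beyond both vehicle arrays, which held for 47.7% of all probes, so this share says little with 2 arrays per group. The median log2 change of the 6 was -0.26 and that of all probes 0.00. When arrays were scaled to their medians in place of quantile normalization, the 2 medians were -0.12 and 0.17.

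The TGF-beta branch is represented by Smad2. Its normalized log2 intensity was 9.32 and 9.28 on the vehicle arrays and 8.91 and 9.15 on the calcitriol arrays, with 9.19 on the array labelled freshly isolated. Both calcitriol values were below both vehicle values, and the array labelled freshly isolated lay between the groups. The log2 change with calcitriol was -0.27 ± 0.14 (SE, n = 2 per group, adjusted p = 0.424), a difference of about the size of the gap between the calcitriol arrays (0.24).

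Smad3, the other TGF-beta SMAD, was at background. Its probe gave deposited signals of 85.6 and 71.6 intensity units with vehicle, 77.4 and 77.0 with calcitriol and 98.0 on the array labelled freshly isolated, where the lowest signal of a detected probe was 137 to 159. Detection p-values ran from 0.392 to 0.956, so the probe gives no level and no fold for Smad3 in any group. Whether the transcript was absent or this probe does not read it was not tested.

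**Figure D1:**
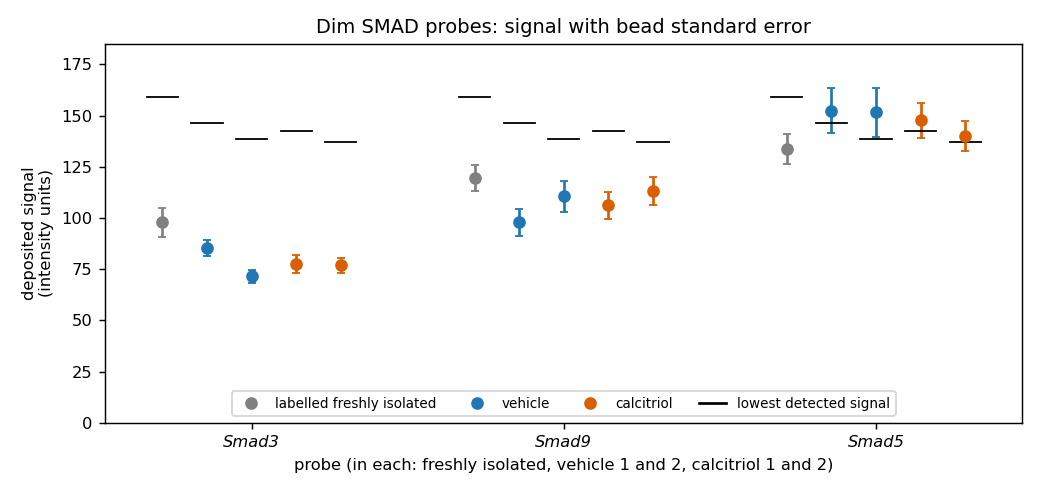
Deposited signal (intensity units, y axis from 0) of the 3 dim SMAD probes on each of the 5 arrays; points are bead means, bars the standard error over beads, and black lines the lowest signal of a detected probe on that array. Smad3 and Smad9 lie below the line on every array, and Smad5 lies above it on the 4 day 3 arrays and below it on the array labelled freshly isolated.

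In the BMP branch, Smad1 was the bright probe. Its normalized log2 intensity was 9.51 and 9.53 with vehicle, 9.31 and 9.06 with calcitriol and 9.28 on the array labelled freshly isolated. The vehicle arrays were the highest of the 5 and differed by 0.02, while the calcitriol arrays differed by 0.24. The change with calcitriol was -0.33 ± 0.14 (SE, n = 2 per group, adjusted p = 0.348), with a 95% interval from -0.69 to 0.03.

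Smad5, which shares the BMP branch with Smad1, was near the detection limit. Vehicle arrays read 6.11 and 6.54 and calcitriol arrays 6.20 and 5.96 in normalized log2 intensity, so the groups overlapped. The array labelled freshly isolated read 5.66, below detection, with a detection p-value of 0.0376. The deposited signals, 152 and 152 with vehicle, 148 and 140 with calcitriol and 134 on the array labelled freshly isolated, had bead standard errors of 5.29% to 7.91%. The change with calcitriol was -0.25 ± 0.19 (SE, n = 2 per group, adjusted p = 0.588). Smad9, the remaining BMP SMAD, was detected on no array, with signals of 97.8 to 120 and detection p-values of 0.0848 to 0.36.

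Smad4, the partner common to both branches, read 10.87 and 10.68 with vehicle, 10.91 and 11.13 with calcitriol and 10.78 on the array labelled freshly isolated. Both calcitriol arrays were above both vehicle arrays, but the nearest pair differed by less than either pair of replicates did. The change was 0.25 ± 0.15 (SE, n = 2 per group, adjusted p = 0.487). In deposited signal the 4 day 3 values ran from 1332 on vehicle array 2, the dimmest array, to 2549 on calcitriol array 2, a wider spread than after normalization.

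The inhibitory SMADs differed in where the array labelled freshly isolated lay, lowest of the arrays for Smad6 and highest for Smad7. Smad6, which acts mainly on BMP signals, read 9.35 and 9.42 with vehicle, 9.06 and 9.05 with calcitriol and 8.86 on the array labelled freshly isolated. Replicates were tight, differing by 0.06 and 0.01, and the groups did not overlap. With calcitriol the change was -0.33 ± 0.13 (SE, n = 2 per group, adjusted p = 0.281). It had the lowest adjusted p of the 6 genes here, with a 95% interval from -0.65 to -0.02.

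Smad7, which blocks TGF-beta receptors and recruits ubiquitin ligases to them, read 8.21 and 8.47 with vehicle, 8.37 and 8.74 with calcitriol and 9.17 on the array labelled freshly isolated. Vehicle and calcitriol arrays overlapped, and the array labelled freshly isolated stood above all 4. The change with calcitriol was 0.22 ± 0.18 (SE, n = 2 per group, adjusted p = 0.612). Replicates differed by 0.26 and 0.37, more than the median of all detected probes (0.17 and 0.16).

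**Figure D2:**
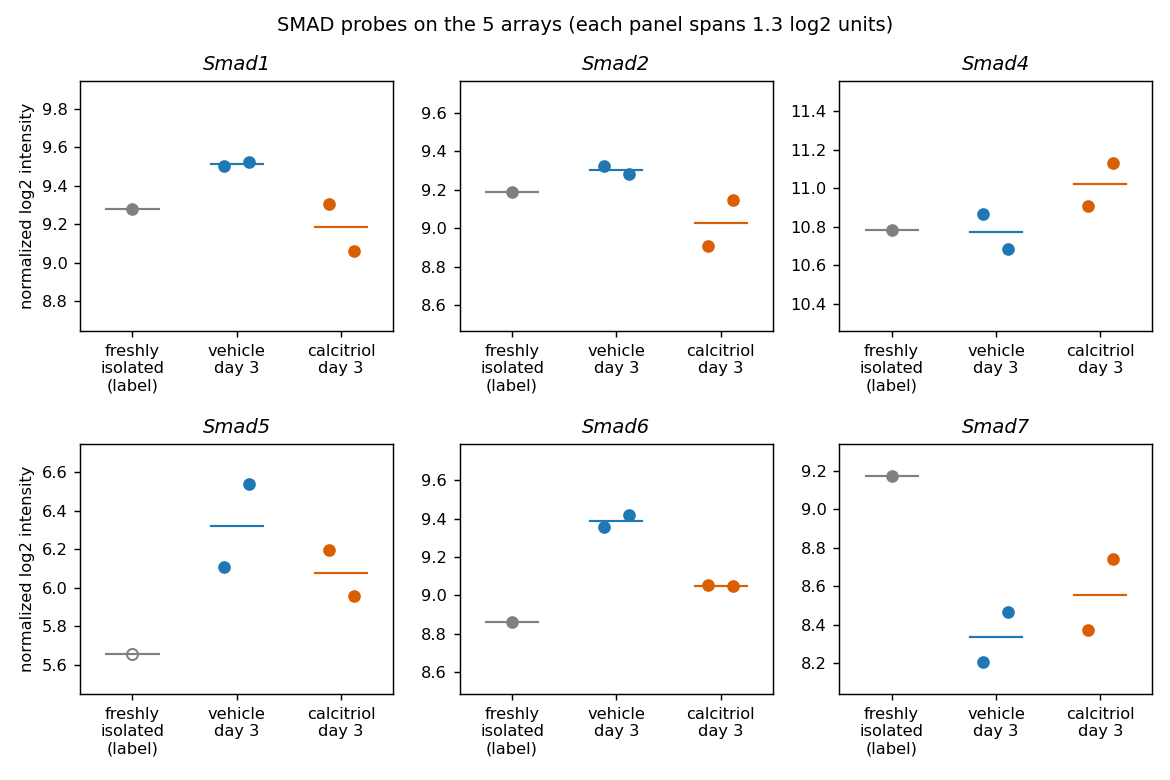
Normalized log2 intensity of the 6 detected SMAD probes on the 5 arrays, 1 panel per gene with the same height in log2 units; points are arrays, lines group means, and the open point a value not detected. Smad7 is highest and Smad5 and Smad6 are lowest on the array labelled freshly isolated, and both calcitriol arrays lie below both vehicle arrays for Smad1, Smad2 and Smad6 and above them for Smad4.

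Vehicle cells at day 3 were next set against the array labelled freshly isolated, a difference that stands for culture only as far as the label is right. Smad7 had the largest difference of the 5 genes detected on all arrays, at 1.79-fold higher on the array labelled freshly isolated (vehicle minus that array, log2 change -0.84 ± 0.22, SE, 2 arrays against 1). It missed the threshold (adjusted p = 0.183), with a 95% interval from -1.39 to -0.28, and passed it without background correction (-0.71, adjusted p = 0.0423) and with a variance trend (adjusted p = 0.0241). In deposited signal the array labelled freshly isolated read 736 ± 33.2 (bead SE) and the vehicle arrays 395 ± 17.2 and 352 ± 21.9. The bead error is measured within an array and does not cover the spread between arrays. Only 4.34% of all detected probes differed by more.

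The other inhibitory SMAD pointed the opposite way. Smad6 was 1.44-fold higher with vehicle (log2 change 0.52 ± 0.15, SE, 2 arrays against 1, adjusted p = 0.219, 95% interval 0.14 to 0.91). Within an array, where any shift common to all probes cancels, Smad6 relative to Smad7 was 2.75-fold and 2.40-fold higher on the vehicle arrays than on the array labelled freshly isolated, and 1.99-fold and 1.54-fold higher on the calcitriol arrays. The 2 inhibitory SMADs thus differed by unequal amounts between that array and each of the 4 day 3 arrays. This pairing was chosen after the values were seen and was not tested.

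The summed level of sinusoidal endothelial markers had the same order of groups as Smad6, but the order was not particular to them. Over 10 detected markers the summed normalized intensity was 6061 on the array labelled freshly isolated, 9994 and 9458 with vehicle, and 7630 and 7540 with calcitriol. The 10 detected kinase genes acting on SMAD linkers had that order too, with sums of 7931, then 9492 and 10016, then 9375 and 8889. The single endothelial markers did not share the order of vehicle and calcitriol, since 5 of 10 were higher with calcitriol, with a median log2 change of -0.04 (0.09 with array-median scaling). With vehicle 9 of 10 were higher than on the array labelled freshly isolated. Of them 1 passed the threshold (Emcn, at least 2.14-fold, adjusted p = 0.0243 for the limma log2 change, not for the bound). Cdh5, a defining endothelial gene, was undetected on all arrays. The part of these markers in the Smad6 values was not tested.

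Smad5 was undetected on the array labelled freshly isolated and its vehicle level was higher by at least 1.13-fold. The adjusted p of 0.307 belongs to the limma log2 change, not to this bound. The bound was taken from the mean of both vehicle arrays against the lowest detected level of the array labelled freshly isolated. Vehicle array 1 (6.11) lay under that level (6.15), so without vehicle array 2 there is no bound. Smad1 had a log2 change of 0.23 ± 0.18 (adjusted p = 0.627), Smad2 of 0.11 ± 0.18 (adjusted p = 0.829, but -0.09 when arrays were scaled to their medians) and Smad4 of -0.01 ± 0.19 (adjusted p = 0.991, and of the other sign without vehicle array 2). In all, limma called 0 of 6 genes, against 1.53% of all detected probes (47 higher, 102 lower). There were 3 of 6 at an unadjusted p under 0.05 (Smad5, Smad6 and Smad7), against 13.9%. For those 3 genes the array labelled freshly isolated lay beyond all 4 day 3 arrays, which held for 39.2% of all probes. In both counts Smad5 was set against an undetected value, so it adds no measured change. Scaling to the array median moved the median change of all probes to -0.18 and that of the 6 genes from 0.17 (0.14 with Smad5 at its bound) to -0.03.

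Among the genes detected on all arrays, the calcitriol mean was closer to the array labelled freshly isolated than the vehicle mean for Smad1, Smad6 and Smad7. It was not closer for Smad2 or Smad4, and for Smad7 the vehicle and calcitriol arrays overlapped. Since both comparisons share that array, no test of this order was made, and its share over all probes was not computed. Over all probes, fewer differed from that array with calcitriol (6.67% at an unadjusted p under 0.05 in limma) than with vehicle (13.9%). The order is therefore not shown to be particular to these genes. Smad7 remained 1.53-fold higher on the array labelled freshly isolated than with calcitriol (calcitriol minus that array, log2 change -0.62 ± 0.22, SE, 2 arrays against 1, adjusted p = 0.7). Of the others, the 4 detected on all arrays had changes from -0.16 (Smad2) to 0.24 (Smad4). No fold is given for Smad5, whose calcitriol mean lay under the lowest detected level of the array labelled freshly isolated. In this comparison limma called 0 of 6 genes, against 0% of all probes. There was 1 of 6 at an unadjusted p under 0.05 (Smad7), against 6.67%.

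**Figure D3:**
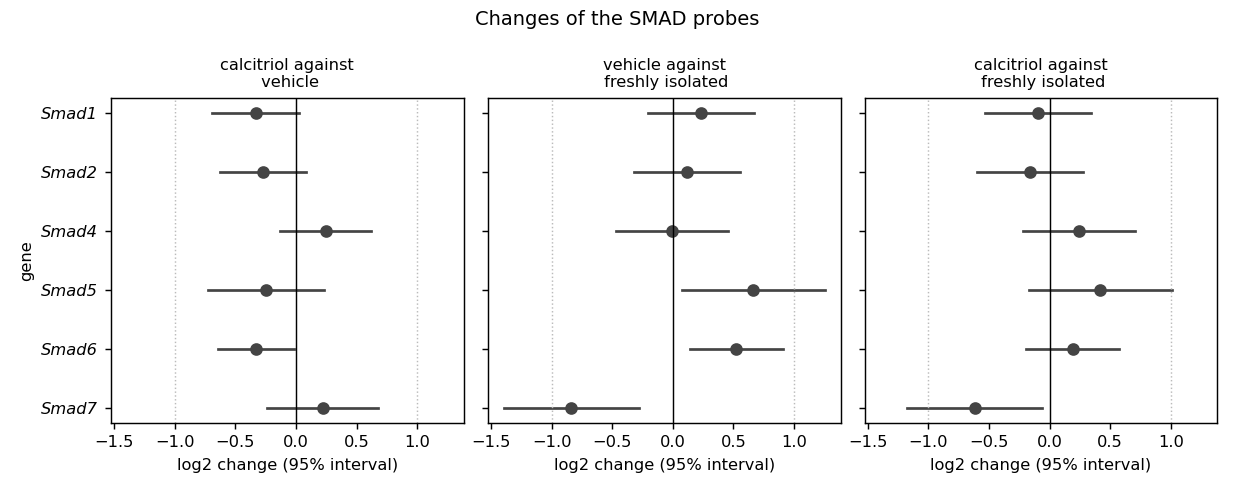
Log2 change (x axis) of the 6 detected SMAD probes in the 3 comparisons; points are limma estimates, bars 95% intervals per gene, and dotted lines a change of 1 in either direction. In the calcitriol comparison every interval lies within the dotted lines, and among genes detected on all arrays the point farthest from 0 is Smad7 (-0.84) between vehicle and the array labelled freshly isolated. The Smad5 points against that array are set against an undetected value and are not measured changes.

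Across all 5 arrays, Smad7 had the widest range of the 5 genes detected on each, 0.97 log2 units, and 9.98% of all detected probes had a wider one. Smad6 had a range of 0.55, and Smad1 (0.46), Smad4 (0.45) and Smad2 (0.41) lay below the median range of all probes (0.47). The range of Smad5 (0.88) ends at its undetected value on the array labelled freshly isolated and is not ranked. The named genes whose values, centred on their own mean, lay closest to Smad7 over the 5 arrays were Coq8a, Pon3 and Rbbp9, at root mean square distances of 0.0461, 0.0597 and 0.0603 log2 units. With 5 arrays and 9737 probes such closeness is a description of these arrays.

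SMAD regulators, the ligases, phosphatases and anchors that act on SMAD proteins, gave 0 of 25 detected genes past the threshold of limma in every comparison (5, 4 and 2 had an unadjusted p under 0.05, against 15.8%, 13.9% and 6.67% of all probes). Pmepa1, a TGF-beta target whose product sequesters Smad2 and Smad3, had deposited signals of 26812 on the array labelled freshly isolated, 10528 and 9974 with vehicle and 15480 and 17950 with calcitriol. Like Smad7 it was highest on the array labelled freshly isolated, but the 2 groups of day 3 arrays did not overlap. It was 1.05 log2 units lower with vehicle than on that array (-1.05 ± 0.19, adjusted p = 0.0812) and had a change of 0.44 ± 0.16 with calcitriol (adjusted p = 0.262). Smurf2, a ubiquitin ligase that works with Smad7, was detected on only 1 array, calcitriol array 2, so no fold is given, and no probe is named Smurf1 here.

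Among DNA-binding partners, coactivators and corepressors, 0 of 22 detected genes passed in limma in any comparison (8, 5 and 4 at an unadjusted p under 0.05, against the same shares of all probes). The corepressor Tgif1 read 9.21 and 9.21 with vehicle, 8.79 and 8.70 with calcitriol and 8.88 on the array labelled freshly isolated, and its change with calcitriol was -0.46 ± 0.13 (adjusted p = 0.17). Of 10 kinase genes acting on SMAD linkers or beside the receptors, 0 passed in limma in any comparison (2, 0 and 0 at an unadjusted p under 0.05, against those shares).

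Of 36 detected targets, a list that includes Smad6 and Smad7, 1 fell and 0 rose with calcitriol. With vehicle, 1 was higher and 0 lower than on the array labelled freshly isolated. Each time 11 had an unadjusted p under 0.05, against 15.8% and 13.9% of all probes, of which 1.83% and 1.53% were called. For calcitriol against that array, 0 of 36 were called, against 0% of all probes. There were 11 at an unadjusted p under 0.05 (3 higher, 8 lower), against 6.67%. The called gene of the first 2 comparisons was Id2, a BMP-SMAD target that blocks differentiation factors. Its deposited signal was 11501 and 8742 with vehicle, 3686 and 4440 with calcitriol and 2998 on the array labelled freshly isolated. Id2 fell by 1.57 ± 0.13 on the log2 scale with calcitriol (SE, n = 2 per group, adjusted p = 0.00808), and without either calcitriol array 0 probes passed, Id2 included (adjusted p = 0.127 and 0.155). Id2 was higher with vehicle than on the array labelled freshly isolated by 2.18 ± 0.15 log2 units (adjusted p = 0.0112), a call also lost without either calcitriol array (adjusted p = 0.0985).

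Id1, the closest BMP-SMAD relative of Id2, read 10.99 and 11.29 with vehicle, 10.49 and 10.37 with calcitriol and 10.37 on the array labelled freshly isolated, a change with calcitriol of -0.71 ± 0.16 (adjusted p = 0.111). Id3 did not share this order, with a change of 0.22 ± 0.20 (adjusted p = 0.633). The vehicle arrays were highest for Id1 and Id2, as they were for Smad1, Smad2 and Smad6, but not for Id3, Smad4, Smad5 or Smad7. The share of all probes with this order was not computed. Vehicle and calcitriol arrays did not overlap, in either direction, for 47.7% of all probes. The order is therefore not shown to be particular to these genes or to link them.

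Of the TGF-beta-SMAD targets, Ccn2, a matricellular growth factor, had a log2 change of -0.21 ± 0.13 with calcitriol (adjusted p = 0.488) and Col1a1, the collagen chain, by -0.17 ± 0.13 (adjusted p = 0.588). Tgfbi, a matrix protein, was undetected on both calcitriol arrays, and vehicle exceeded them by at least 1.35-fold (adjusted p = 0.12 for the limma log2 change, not for the bound). The median change of the targets with calcitriol was -0.02, against 0.00 for all probes, and both were 0.17 with scaling to the array median.

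Among 25 detected ligands, receptors and extracellular inhibitors, 1 rose with calcitriol and 1 was lower with vehicle than on the array labelled freshly isolated. Of all probes, 1.83% and 1.53% were called in these comparisons. At an unadjusted p under 0.05 the list had 4, 3 and 1 in the 3 comparisons, against 15.8%, 13.9% and 6.67% of all probes. Gdf15, a distant TGF-beta family cytokine induced by stress, gave 398 and 286 intensity units with vehicle, 758 and 752 with calcitriol and 716 on the array labelled freshly isolated, and rose 1.24 ± 0.15 on the log2 scale with calcitriol (adjusted p = 0.0236). Without any 1 of the 4 day 3 arrays its adjusted p lay between 0.0544 and 0.223, with changes of 1.13 to 1.34. Fstl3, which binds and blocks activin, gave 772 and 620 with vehicle, 927 and 1101 with calcitriol and 2068 on the array labelled freshly isolated, and was lower with vehicle (log2 change -1.32 ± 0.16, SE, adjusted p = 0.0267). That call was lost without any 1 of the 4 day 3 arrays (adjusted p = 0.0647 to 0.122) and with the replicate block (adjusted p = 0.0697).

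**Figure D4:**
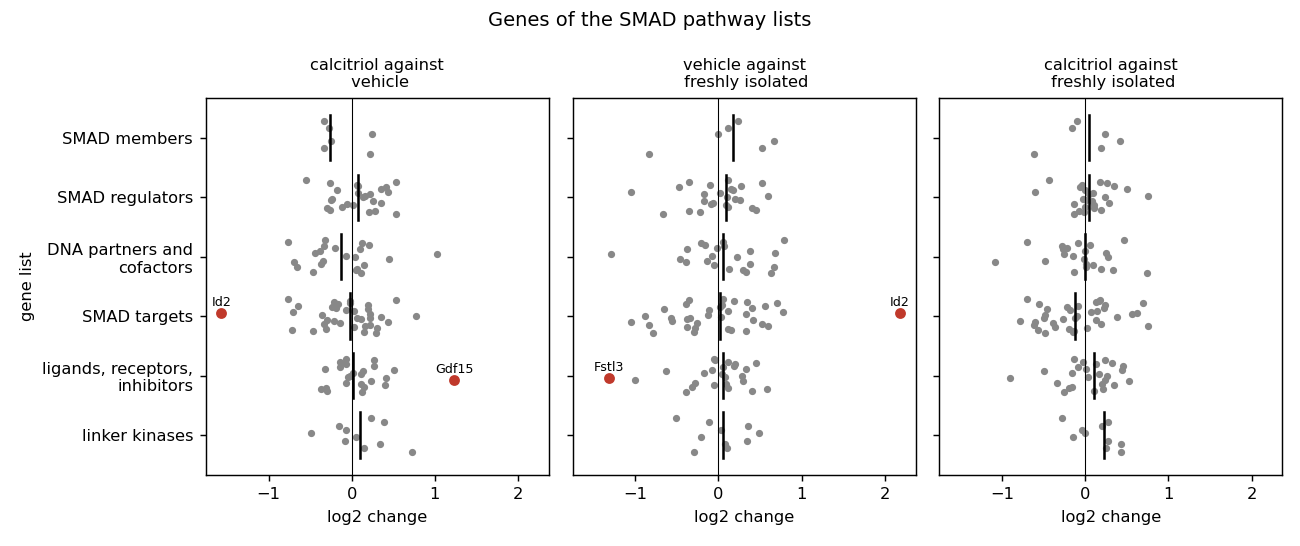
Log2 change (x axis) of each detected gene in 6 lists of the SMAD pathway (y axis) in the 3 comparisons; grey points did not pass the threshold, red points did and are named, and black lines are list medians. Id2 at -1.57 and 2.18, Gdf15 at 1.24 and Fstl3 at -1.32 are the only genes past the threshold, and the list median farthest from 0 is that of the SMAD genes with calcitriol (-0.26).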

How the data were processed

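Total RNA was labelled with biotin and hybridised to Illumina bead arrays, per the labels' protocols, and GenomeStudio 2011.1 was used, per the submitters' processing notes. Per the file headers, the deposited table gives for each probe the mean bead intensity, its bead standard error, the number of beads (median 40 or 41) and a detection p-value. The deposited intensities are above 0 and unscaled. All 5 arrays share a chip, so group and chip position cannot be told apart.

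Background was corrected with limma 3.58.1 in R 4.3.3 (neqc, controls inferred from the detection p-values, offset 16, quantile normalization, log2). The offset damps changes of dim probes. Without background correction, however, the log2 change of the dim Smad5 between vehicle and the array labelled freshly isolated was smaller (0.32 against 0.66). Probes detected (p under 0.01) on at least 1 array were kept, 9737 of 22523. Names came from the platform annotation (13793 probes named), checked against RefSeq GRCr8, with 0 symbols changed. A gene with several probes was represented by the brightest, and each SMAD gene had 1. A model with 1 mean per group (lmFit, eBayes, 2 residual and 3.65 prior degrees of freedom) was fitted to all arrays and tested on simulated data. Adjusted p-values are two-sided, Benjamini-Hochberg over all kept probes, threshold 0.05. Intervals are 95% and unadjusted.

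Members and lists were chosen with earlier results of these data known. Named were all members, up to 4 called genes per list, fixed SMAD targets and regulators, and the 3 nearest genes of Smad7 and Smad5, the members of widest range (those of Smad5 are left out, since its range ends at an undetected value). Alternatives covered background, scaling, filter, variance model, block and left-out arrays.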

Additional observations from a re-analysis of the deposited data

How the results depend on the processing

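Of 231 alternative values of the 18 SMAD changes, 228 kept their side of the threshold and 4 had the other sign (Smad1, Smad2 and Smad4, none of them called). The exceptions were Smad7 for vehicle against the array labelled freshly isolated, past the threshold without background correction, in the series value table and with a variance trend, so that the members called there were 1 in place of 0. The cause was not tested. These alternatives are not independent. The series value table nearly repeats the fit without background correction. Fitting only the arrays compared repeats the main values for calcitriol against vehicle. Settings that called 0 probes could not call a SMAD gene. Probes called for calcitriol against vehicle numbered 178, and 488 without background correction and in the series value table, 298 with array-median scaling (237 higher, 61 lower), 325 for probes detected on all arrays, 684 with a variance trend, and 0 to 83 with an array left out. For vehicle against the array labelled freshly isolated they numbered 149, and 401 without background correction and in the value table, 276 with median scaling (56 higher, 220 lower), 282 for probes detected on all arrays, 506 with a variance trend, 0 with only the arrays compared, 68 with the replicate block, and 0 to 60 with an array left out. Calcitriol against that array gave 0, but 30 without background correction and in the value table, 22 with median scaling and 51 with a variance trend. Replicate numbers of day 3 arrays are not stated to pair them (correlation of deviations -0.106). With the replicate block 129 probes were called for calcitriol against vehicle, and with crossed numbers, added after seeing the data, 204 and 102 in the first 2 comparisons; no SMAD call changed under either. Each SMAD gene has 1 named probe, so other probes could not be tried. The number of arrays limits the precision, and Smad3, Smad5 and Smad9 are limited by signal near background.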
